A study of Drosophila melanogaster with 6 samples.

Results

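The genes described here encode the core enzymes of glycolysis in Drosophila melanogaster, and their transcripts were measured in the heads of adult males with and without the Sex-lethal gene (Sxl). The list held 10 genes: Hex-A, Pgi, Pfk, Tpi, Gapdh1, Gapdh2, Pgk, Pglym78, Eno and PyK. Members were found by matching current gene symbols and identifiers to the annotation of the array's probe sets. Of the 10 genes, 8 had a probe set of their own, 1 each, among 18769 probe sets that are not controls. No probe set was named for Gapdh2 and PyK in the annotation used here, and they were not analysed. The 8 members all passed the filter on low intensities, which kept 11261 probe sets.

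The tested males carried the X chromosome cm Sxlfp7BO ct, on which a small deletion removes Sxl and mutant alleles of carmine (cm) and cut (ct) mark its flanks. The comparison group were wild-type males labelled Oregon-R, described as brothers from the same cross. Both were males 2 to 5 days old, raised at 25 °C, and the deletion had been backcrossed to Oregon-R for more than 6 generations. Each genotype was measured on 3 arrays, with total RNA from whole heads, and how many heads went into an array is not stated in the labels. They call the samples of a genotype biological replicates, without saying whether these are separate crosses. Because the deletion males also carried mutant cm and ct, the loss of Sxl and the flanking segment cannot be told apart. In whole heads, fewer cells of a type and less RNA per cell cannot be told apart either.

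Glycolysis splits glucose into pyruvate in the cytosol and yields ATP and NADH. Hexokinase, phosphoglucose isomerase and phosphofructokinase prime the sugar, aldolase and triose-phosphate isomerase split it and interconvert the products, and the enzymes from glyceraldehyde-3-phosphate dehydrogenase to pyruvate kinase recover energy. In fly heads glycolysis feeds the retina and brain, where glia supply neurons with its products, and the muscles that move the mouthparts. Transcripts of some of these enzymes, such as glyceraldehyde-3-phosphate dehydrogenase, are often used as loading controls because they are abundant in most tissues.

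The array labels matched the genotypes. The 3 Sxl probe sets had intensities of 3.99 to 6.26 on the deletion arrays, against 88.8 to 205.6 on the wild-type arrays. Median intensities were 14.3 to 14.8 over the 6 arrays, and correlations between arrays were 0.994 to 0.998 on the log2 scale. No array stood apart on these measures. Values are linear intensities as deposited, and fold changes are differences of log2(intensity + 1) between deletion and wild type. An array intensity depends on the probes, so values are compared between arrays for 1 gene and not between genes.

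Of the 8 glycolytic genes 1 changed past the threshold of an adjusted p of 0.05, and it fell. That gene was Pgi, which encodes phosphoglucose isomerase, the enzyme that turns glucose 6-phosphate into fructose 6-phosphate. Hex-A, the hexokinase gene of the step before, had the largest positive value, and Pgk, further down the pathway, had the next largest negative one. The other 5 members had log2 fold changes between -0.07 and 0.03. The share of 12.5% called among the members stands against 2.60% of all probe sets tested, and 1 gene makes up that share.

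The entry steps of the pathway held both the fall and the largest positive value. Pgi had intensities of 1875, 1822 and 1767 in deletion heads and 2189, 2119 and 2237 in wild-type heads. All 3 deletion arrays were below all 3 wild-type arrays, and the gap between the groups was wider than the spread within either. Pgi averaged 1821 ± 54.3 in deletion heads and 2182 ± 59.5 in wild-type heads (SD, n = 3 each), a log2 fold change of -0.26 ± 0.04 (SE, limma adjusted p = 0.0226). The intensity thus fell by 16.5% (95% interval -21.9% to -10.8%). Among all probe sets tested, 10.1% had a change of at least this size in either direction. The value of Pgi ranged from -0.28 to -0.24 over 15 alternative fits. Its adjusted p was 0.0815 without the intensity trend of the variance model, and from 0.0541 to 0.111 when any single array other than wild-type replicate 1 was left out.

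Hex-A encodes the hexokinase that phosphorylates glucose in most adult fly tissues. Its intensities were 663, 792 and 748 in deletion heads and 603, 689.7 and 652 in wild-type heads. The groups overlapped, since deletion replicate 1 lay below wild-type replicate 2, but within each replicate number the deletion array was the brighter one. Hex-A averaged 735 ± 65.4 in deletion heads and 648 ± 43.5 in wild-type heads (SD, n = 3 each), a log2 fold change of 0.18 ± 0.08 (SE) with a limma adjusted p of 0.287. The 95% interval of the change ran from -0.07% to 28.2%. With the replicate number as a block its SE was 0.04 and the limma adjusted p was 0.0434, so its call rests on the pairing of the arrays. Hex-A lies on the X, 249 protein-coding genes from Sxl on the side of ct, and the other 7 measured members are autosomal.

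Pfk encodes phosphofructokinase, the enzyme that commits the sugar to glycolysis. Its intensities were 764, 809 and 778 in deletion heads and 706, 766 and 858 in wild-type heads. The 3 deletion values lay inside the wild-type range, and wild type was the more variable group, with an SD of 76.7 against 23.2 in deletion heads. The log2 fold change was 0.02 ± 0.07 (SE, limma adjusted p = 0.94), with a 95% interval of -9.86% to 13.5%.

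**Figure D1:**
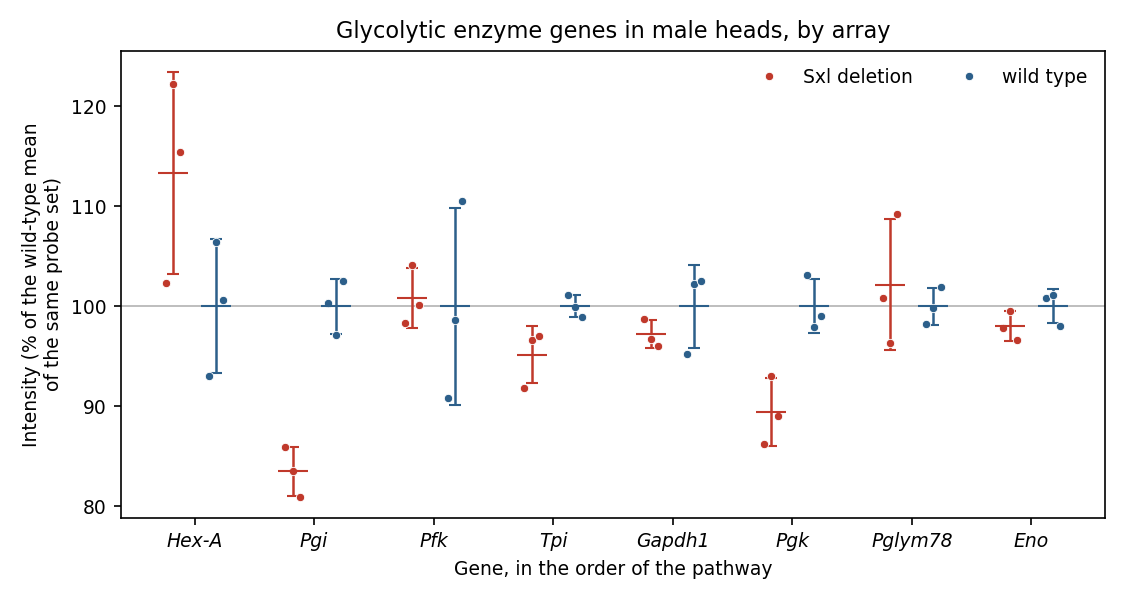
Intensity of the 8 glycolytic enzyme genes on each array, as a percent of the wild-type mean of the same probe set, with genes in pathway order on the horizontal axis. Points are arrays, and bars are the mean ± SD of 3 arrays. Deletion arrays for Pgi lie between 81.0% and 85.9%, below all wild-type arrays, while those for Hex-A run from 102% to 122%.

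Tpi encodes triose-phosphate isomerase, which interconverts the 2 products of the aldolase step. Its intensities were 2502, 2633 and 2642 in deletion heads and 2755, 2723 and 2694 in wild-type heads. The groups did not overlap, though the nearest arrays were close. The log2 fold change of -0.07 ± 0.04 (SE) did not pass the test (limma adjusted p = 0.382).

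Gapdh1 encodes one of the 2 glyceraldehyde-3-phosphate dehydrogenases of the fly, the enzyme that reduces NAD+. Its intensities were 3018, 2956 and 2936 in deletion heads and 2909, 3124 and 3134 in wild-type heads. The groups overlapped because wild-type replicate 1 was the lowest of all 6 arrays. The log2 fold change was -0.04 ± 0.04 (SE, limma adjusted p = 0.69), and the 95% interval ran from -9.05% to 3.97%.

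Pgk encodes phosphoglycerate kinase, which makes the first ATP of the pathway. Its intensities were 950.1, 1025 and 981 in deletion heads and 1135, 1078 and 1090.4 in wild-type heads. All 3 deletion arrays were below all 3 wild-type arrays. Pgk averaged 985 ± 37.6 in deletion heads and 1101 ± 29.9 in wild-type heads (SD, n = 3 each), a log2 fold change of -0.16 ± 0.05 (SE). The unadjusted p was 0.00811, and the limma adjusted p over all probe sets was 0.118, or 0.0899 with the replicate block, so Pgk was not called in either fit. Over 15 alternative fits its adjusted p ran from 0.0892 to 0.308.

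Pglym78 encodes a phosphoglycerate mutase, which moves the phosphate group ahead of the enolase step. Its intensities were 75.3, 72.0 and 81.6 in deletion heads and 73.4, 74.6 and 76.1 in wild-type heads. The deletion values spread on both sides of the wild-type values, and the log2 fold change was 0.03 ± 0.07 (SE, limma adjusted p = 0.891). Eno encodes enolase, which makes phosphoenolpyruvate. Its intensities were 3062, 3117 and 3023 in deletion heads and 3156, 3165 and 3069.6 in wild-type heads. The groups overlapped, and the log2 fold change was -0.03 ± 0.03 (SE, limma adjusted p = 0.744). The 95% interval for Eno was the narrowest of the members and ran from -7.32% to 3.62%.

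Together, 5 members had a negative and 3 a positive log2 fold change, where 48.7% of all probe sets tested were negative. The median of the members was -0.03 against 0.00 over all probe sets tested. Pgi, Tpi and Pgk had groups that did not overlap, which is 3 of 8 members, or 37.5%, against 24.0% of all probe sets tested. With the replicate block 2 of the 8 were called, Pgi lower and Hex-A higher, against 7.40% of all probe sets in that fit. The median was -0.05 with each array centred on its median, -0.02 after quantile normalization and -0.06 without wild-type replicate 1.

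**Figure D2:**
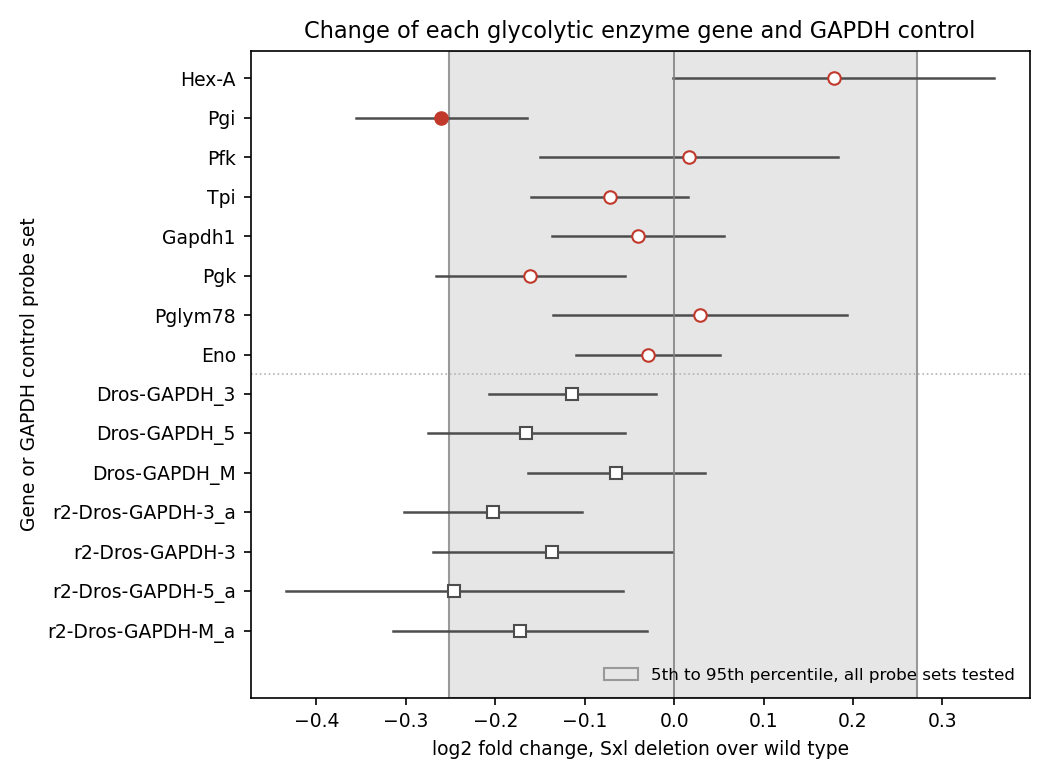
Log2 fold change of deletion over wild type on the horizontal axis for the 8 glycolytic genes (circles, filled where the adjusted p was under 0.05) and the 7 GAPDH control probe sets (squares), with 95% intervals. The shaded band spans the 5th to the 95th percentile of all probe sets tested, -0.25 to 0.27. Pgi lies at its lower edge, and all 7 GAPDH controls lie left of 0.

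The arrays also carried 7 control probe sets for GAPDH, placed by the array maker at the 3' end, the middle and the 5' end of the transcript in 2 families. The sources used here do not pair them with Gapdh1 or Gapdh2, and they were left out of the counts above. The first family's 3' control had intensities of 2567, 2666 and 2507 in deletion heads and 2717, 2845 and 2813 in wild-type heads. The second family's 3' control with the brighter signal had 1937, 2038 and 2100.4 in deletion heads and 2344, 2368 and 2278 in wild-type heads. In both, and in the other 5 controls, every deletion array was below every wild-type array. Among all probe sets tested, 24.0% had groups that did not overlap, in either direction. The 7 controls are not independent of each other, so they do not count as 7 such cases.

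In a fit that kept the control probe sets, the 7 log2 fold changes ran from -0.25 to -0.06. None passed the threshold (limma adjusted p from 0.0556 to 0.501), where 2.54% of all probe sets in that fit did. Of the 7, 6 had an unadjusted p under 0.05, as did 1985 of the 11261 probe sets tested without the controls. The smallest adjusted p belonged to the second family's brighter 3' control, at -0.20 ± 0.04 (SE). The named Gapdh1 probe set, at -0.04, did not separate the groups. The controls share 1 gene product or a pair of close ones, so they are not 7 independent measurements.

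The ratio of 3' to 5' GAPDH signal, a measure of how complete the RNA and its copies are, was 3.92, 3.79 and 3.71 in deletion heads and 3.61, 3.62 and 3.80 in wild-type heads. The groups overlapped (exact permutation p = 0.3, two-sided, where 0.1 is the smallest that 3 against 3 arrays allow). The difference of the means was 0.134 with the 5' control, and -0.0597 with the middle control in its place (exact p = 0.4), so its sign depends on the probe set it is set against. In the second family the 3' to 5' ratio was far higher, at a mean of 22.1 in deletion heads and 21.4 in wild-type heads. Its difference of 0.677 had the sign of the first family's (exact permutation p = 0.6).

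Differences between arrays of equal replicate number showed which members kept 1 direction. For Pgi they were -0.22, -0.22 and -0.34 for numbers 1, 2 and 3. For Hex-A they were 0.14, 0.20 and 0.20, a narrow range although the arrays of each genotype spread widely. Tpi, Pgk and Eno were negative in all 3 pairs, while Pfk, Gapdh1 and Pglym78 had both signs. The differences for Eno were small, from -0.04 to -0.02. How many of all probe sets tested had 1 sign in all 3 pairs was not counted, so these signs have no background and are a description only. For Pgi, Tpi and Pgk the groups did not overlap, so any pairing of the arrays would give 1 sign.

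**Figure D3:**
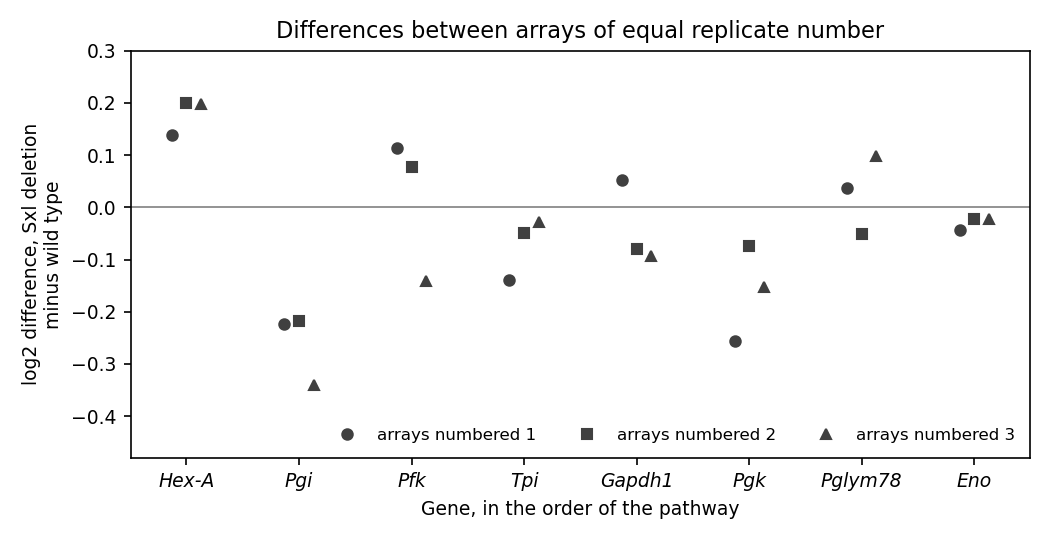
Log2 difference of deletion minus wild type on the vertical axis for each glycolytic gene, with 1 point for each pair of arrays that share a replicate number. The 3 points of Hex-A lie between 0.14 and 0.20, those of Pgi between -0.34 and -0.22, and those of Pfk on both sides of 0.

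Genes around glycolysis were taken from 8 lists of 90 genes: other glycolytic enzymes and paralogues, gluconeogenesis and the glycerol 3-phosphate shuttle, entry of pyruvate into mitochondria, the TCA cycle, the pentose phosphate pathway, glycogen and trehalose, transport, and regulators. A gene was represented by its brightest probe set. Of the 90 genes 78 had a probe set and 63 passed the filter, of which 43 had a negative and 20 a positive log2 fold change (median -0.05). Over all probe sets tested, 48.7% were negative. Only 1 of the 63 was called, which is 1.59% against the 2.60% of all probe sets. Of the 63, 18 had an unadjusted p under 0.05, as did 1985 of all 11261 probe sets tested. These values over all probe sets are the background for each list below. With the replicate block 7 were called and all were lower, 11.1% against 7.40%.

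The 1 call was Pfrx, which encodes the enzyme that makes and breaks fructose 2,6-bisphosphate, the activator of phosphofructokinase. Its intensities were 417, 445 and 449 in deletion heads and 519.5, 506 and 519 in wild-type heads, with no overlap. It fell with a log2 fold change of -0.24 ± 0.05 (SE, limma adjusted p = 0.0493, 0.0287 with the replicate block). The call was close to the threshold: the adjusted p was 0.0634 without the filter, 0.105 without the intensity trend and 0.055 to 0.151 with any single array left out. Pfrx lies on the X, 1259 protein-coding genes from Sxl on the side of ct.

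The remaining glycolytic enzymes that were tested were not called, and Ald2 and Ldh had no probe set of their own. Aldolase (Ald1), which stands between Pfk and Tpi, had log2 fold changes of -0.13 and -0.12 on 2 probe sets (limma adjusted p = 0.182 and 0.457). Phosphoglucomutase (Pgm1), which links glycogen to glucose 6-phosphate, had -0.16 (adjusted p = 0.123). Hex-C, a second hexokinase, had -0.06 (adjusted p = 0.794). The hexokinases Hex-t1 and Hex-t2 and the mutase Pglym87 did not pass the filter on low intensities and were not tested. Of the 7 genes tested in this list 6 were negative (median -0.06).

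In the pentose phosphate pathway, which branches off at the substrate of Pgi, all 5 genes tested had negative values (median -0.19). None was called with limma while 3 had an unadjusted p under 0.05. Zw and Pgd of this list had no probe set of their own and were not measured. The transketolase gene CG8036 had intensities of 1302, 1347 and 1249.7 in deletion heads and 1776, 1505 and 1583 in wild-type heads, without overlap. Its log2 fold change was -0.32 ± 0.07 (SE, limma adjusted p = 0.051, 0.022 with the replicate block). The transaldolase gene Taldo had -0.24 (adjusted p = 0.0938, 0.0492 with the block), and the lactonase gene Pgls had -0.19 (adjusted p = 0.21, 0.0801 with the block), and lies on the X, 349 protein-coding genes from Sxl on the side of ct.

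The TCA cycle list had 12 of 14 tested genes below 0 (median -0.07), with no call by limma and 5 unadjusted p under 0.05. Its smallest p values belonged to the succinyl-CoA ligase gene ScsbetaG (-0.26, adjusted p = 0.0824), the isocitrate dehydrogenase genes Idh (-0.16, 0.093) and Idh3g (-0.18, 0.132), and ScsbetaA (-0.17, 0.143). With the replicate block Idh (adjusted p = 0.0448) and ScsbetaA (0.0427) were called. The brightest probe set of ScsbetaG was not (0.0601), but a dimmer one passed the threshold in that fit. The dimmer one had -0.29 (limma adjusted p = 0.0545, 0.0444 with the block). Gpdh1, the glycerol 3-phosphate dehydrogenase that draws on a product of the aldolase step, had -0.17 on its brightest probe set (adjusted p = 0.0917). Its values ran from -0.35 to -0.12 over its 4 probe sets. Of those, the lowest had a limma adjusted p of 0.0513, or 0.00786 with the block. In that list 4 of 6 genes tested were negative, none was called with limma and 3 had an unadjusted p under 0.05, and Pepck1, of gluconeogenesis, had 0.10 (adjusted p = 0.255).

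Lists at the ends of the pathway had medians near 0. For glycogen and trehalose 6 of 8 genes were negative (median -0.02), with no call by limma and 2 unadjusted p under 0.05. Tps1, which makes the blood sugar trehalose, had -0.21 (adjusted p = 0.106, 0.0474 with the block), and UGP, of UDP-glucose synthesis, had -0.29 (adjusted p = 0.103). The 5 genes tested for pyruvate entry ran from -0.07 to 0.05, with 0 calls by limma and 0 unadjusted p under 0.05. The 9 transport genes had a median of 0.01, again with 0 calls by limma and 0 unadjusted p under 0.05, and the monocarboxylate transporter gene chk had -0.22 (adjusted p = 0.33, 0.0474 with the block). The 9 regulators had a median of 0.03 with no call by limma and 2 unadjusted p under 0.05, and the sugar-sensing factor Mondo had 0.19 (adjusted p = 0.18).

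**Figure D4:**
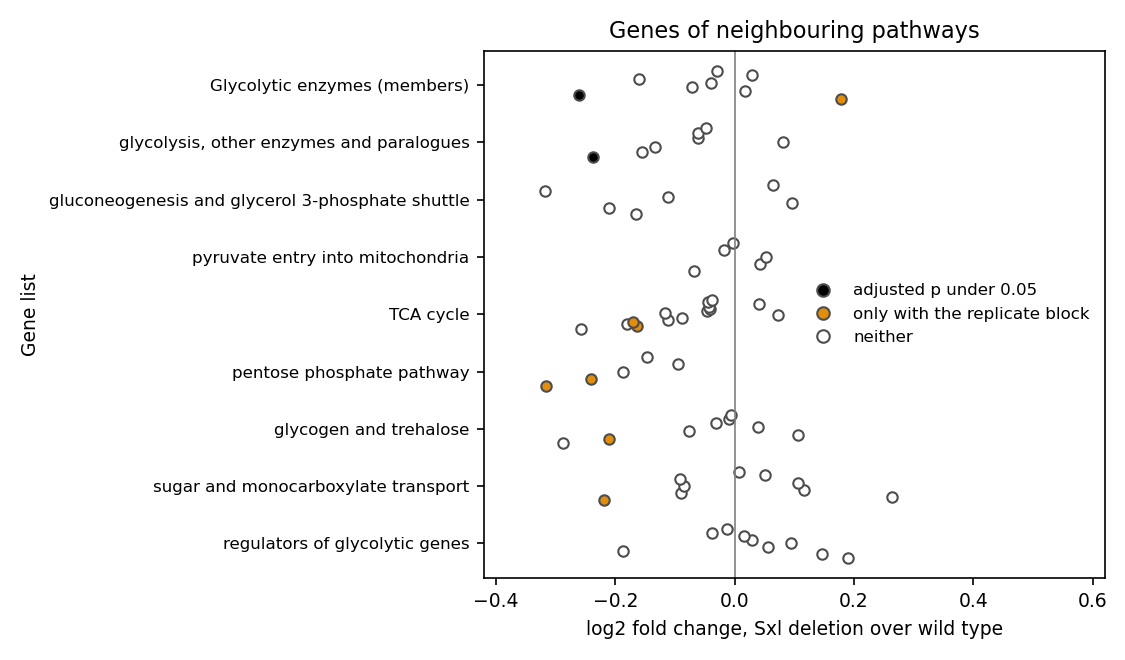
Log2 fold change of deletion over wild type on the horizontal axis for the 8 measured glycolytic enzyme genes and for tested genes of 8 neighbouring lists, with the brightest probe set per gene. Black points had an adjusted p under 0.05, orange points only in the fit with the replicate block, and white points in neither. All 5 pentose phosphate genes tested lie left of 0, whereas transport genes and regulators lie on both sides.

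Markers of the cell types in a head were measured beside these values. Muscle, which is rich in glycolytic enzymes, had no call by limma among 20 genes tested and no unadjusted p under 0.05, with summed intensities of 17151 to 18051 on deletion arrays and 16153 to 18859 on wild-type arrays. Photoreceptor markers were detected, as a head should have them, and all 11 tested had positive values (median 0.38). Of these 11, 4 rose, namely Gbeta76C (0.38), inaD (0.53), rdgA (0.57) and Cpn (0.85), where 2.60% of all probe sets were called, and with the replicate block 7 were called higher, where 7.40% were. The summed photoreceptor intensities were 44575 to 46192 on deletion arrays and 31953 to 38910.4 on wild-type arrays. Fat body and hemolymph genes had summed intensities of 17222 to 19440.0 on deletion arrays and 22942 to 27080.4 on wild-type arrays, with 7 of 10 tested genes below 0 and 3 above it (median -0.19, from -0.92 to 0.45). Of these 10, 3 fell, namely tobi (-0.92), Obp99b (-0.91) and fit (-0.62), and with the replicate block 5 were called lower, against the same 2.60% and 7.40% of all probe sets. All 7 of these marker calls were lost without the intensity trend, and each was lost with some single arrays left out.

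Glial markers had 8 of 11 tested genes below 0 (median -0.04), with summed intensities of 8892 to 9149 on deletion arrays and 8973 to 9724 on wild-type arrays. None was called by limma and 2 had an unadjusted p under 0.05, alrm (-0.31, adjusted p = 0.0621, 0.0124 with the block) and nrv2 (-0.24, adjusted p = 0.0734, 0.0377 with the block). Neuronal markers had 5 of 10 on either side of 0 (median 0.02), with no call by limma and 2 unadjusted p under 0.05. With the block 1 of 10 was called, nSyb, which encodes a synaptic vesicle protein (0.30, adjusted p = 0.163, 0.0433 with the block). The other of the 2 was fne, which went the other way (-0.15, adjusted p = 0.185, 0.0981 with the block). In the fit with the block 7.40% of all probe sets were called, which is the background for the glial values as well. Hemocyte markers (7 tested, median 0.09) had no call by limma and 1 unadjusted p under 0.05. Testis markers, which a head should lack, had 2 of 10 genes above the filter, with 0 calls by limma and 0 unadjusted p under 0.05. Photoreceptor and fat body sums thus did not overlap between the genotypes, but this was not particular to them. Testis sums did not overlap either (88.7 to 102 on deletion arrays, 107 to 108 on wild-type arrays). The same held for other glycolytic enzymes, the TCA cycle, the pentose phosphate pathway, glycogen and trehalose, and regulators. Sums count every gene with a probe set, and 8 of the 10 testis genes were below the filter. Gene by gene, all 11 photoreceptor markers tested and 9 of 10 for fat body and hemolymph had groups without overlap. That stands against 1 of 2 testis genes tested and 24.0% of all probe sets tested. The part of photoreceptor and fat body markers in the values of Pgi, Hex-A and the neighbouring genes was not tested.

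Outside the list, the genes whose log2 profile over the 6 arrays was most like the mean profile of the 8 members were kn (r = 0.993), CG46025 (0.991), Sulf1 (0.988), Nprl3 (0.988) and CG15021 (0.984). These are Pearson correlations over 6 arrays that share the genotype contrast, taken as the highest among 8662 genes, of which 175 had r of at least 0.9. Their log2 fold changes ran from -0.27 for Nprl3 to -0.09 for Sulf1, and none was called (limma adjusted p from 0.338 to 0.495). The mean profile of the members itself spanned a small range, from -0.05 on deletion replicate 1 to 0.05 on wild-type replicate 3. The members did not share 1 profile. Pearson correlations between pairs of them over the 6 arrays ran from -0.774 for Hex-A and Pgi to 0.915 for Tpi and Pgk. A gene that resembles their mean need not resemble each member.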

How the data were processed

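The authors deposited 1 linear intensity per probe set and array, per the series' value table. Their summarisation and normalization are not given in the sources used here. Array medians differed by 0.05 on the log2 scale, under the limit of 0.2 set for this, so the intensities were used as deposited. Precision is limited by the 6 arrays, with a median SE of 0.08 for a log2 fold change.

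The log2(intensity + 1) values were fitted with limma 3.58.1 under R 4.3.3 (lmFit, eBayes with an intensity trend, genotype as the only term, two-sided). The 183 control probe sets were left out, and the 11261 whose mean reached the 40th percentile, or 8.35 in intensity, were tested. P-values were adjusted by Benjamini-Hochberg over all 11261, with a threshold of 0.05. The script was tested on simulated arrays. Gene names came from the platform annotation, updated through Entrez identifiers to RefSeq (Release 6 plus ISO1 MT), which gave 1 gene to 13647 probe sets. The array's build is not given, so no coordinates are printed, and no sequences were at hand.

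The members and lists were chosen with earlier results of these data known. Genes named are the members, up to 4 genes with the smallest p per pathway list, called markers up to 4 per list, and the 5 most alike profiles. Hex-C, Hex-t1, Hex-t2, Pglym87, alrm, nrv2, nSyb, fne and the dimmer probe sets of a gene were added after their values were seen.

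Around the genotype means, arrays of equal replicate number deviated together (r of 0.216, 0.248 and 0.114), with r from -0.223 to 0.0573 between the others. All 3 were above the bound of 0.1, so equal numbers were treated as pairs, but only in the replicate block and in the pairwise differences. The main p-values and calls came from genotype alone and ignore this pairing. The pairing comes from the values and not from the labels, and p-values with the block may be too favourable. The fits were repeated with other filters, scalings, pseudocounts, variance models, weights and thresholds, with the replicate block and without each array.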

Additional observations from a re-analysis of the deposited data

How the results depend on the processing

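The count of 1 called member was 0 without the intensity trend, 2 with the replicate block and 0 to 1 when 1 array was omitted. The count over all probe sets, 293, was 128 without the trend, 572 with array weights, 833 with the replicate block and 683 at a threshold of 0.1. It rose to 432 without wild-type replicate 1, and was 56 to 157 when any other single array was omitted. The 1 call among the neighbouring lists was 0 without the filter and without the trend, 2 with the filter at the 60th percentile, with quantile normalization, with arrays centred on their median, with the robust variance and with array weights, 6 at a threshold of 0.1, 7 with the replicate block and 0 to 1 when 1 array was omitted. The members' median of -0.03 was -0.055 with arrays centred on their median and from -0.0569 to -0.0225 across the omissions. The mean over probe sets equals the brightest probe set here, since each member has 1.

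Sign changes were seen only in values that were not called. Pfk had -0.00349 with arrays centred, -0.00428 with array weights and -0.0501 to 0.0906 with single arrays left out, and Pglym78 had -0.0202 to 0.0691. Among other named genes they were Pdk (-0.0115 to 0.122), muc (-0.0415 to 0.0043), Treh (-0.136 to 0.00175) and mia (-0.22 to 0.0405), with single arrays left out. The GAPDH ratio difference was -0.0597 with the middle control. The cause of these changes was not tested. Of 128 values of the members under the alternatives, 116 kept their sign and their side of the threshold. Probe sets that come near the lowest intensities may have understated folds, which does not apply to the members, whose lowest intensity was 72.0.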
